A study of Mus musculus with 9 samples.

Results

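Lifr, Il6st, Stat3, Socs3 and Spp1 are 5 genes tied to the attachment of the embryo to the uterus. They were taken by symbol from a deposited table of 15158 genes, all 5 were present, and all 5 passed the filter on low values. RNA was sequenced from laser-captured uterine luminal epithelium, the lining to which an embryo attaches, of mice on pregnancy day 4. The females had been kept with littermates to an age of 8 weeks and mated with stud males. The ePRBoe mice (Wnt7acre/+PgrBLsL/+) carried an allele that overexpresses isoform B of the progesterone receptor once Cre recombinase has acted on it, and the ePRAoe mice (Wnt7acre/+PgrALsL/+) carried the same kind of allele for isoform A. Wnt7acre mice had the Cre recombinase without either allele and were the controls, so all 3 genotypes carried the Cre. The Cre is driven by the promoter of Wnt7a, a gene of the uterine epithelium, and an allele it activates can also be active in gland epithelium. There were 3 libraries of each genotype, 9 in all. Whether a library came from 1 animal or from several pooled animals is not given in the labels, which only number the bioreplicates. The p-values therefore reflect spread among libraries, which may be partly technical and may differ from spread among single animals.

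Leukemia inhibitory factor (LIF) is a cytokine that the uterine glands of the mouse secrete shortly before implantation. It binds the receptor chain LIFR, encoded by Lifr, which pairs with the shared chain gp130, encoded by Il6st. Kinases of the JAK family bound to these chains then phosphorylate STAT3, which enters the nucleus and activates target genes, and SOCS3 is one of those targets and shuts the receptor off again. In the mouse uterus this signal to the luminal epithelium is needed for implantation. Spp1 encodes osteopontin, a secreted phosphoprotein that binds integrins and CD44 on cell surfaces. It is made by epithelia and also by macrophages and natural killer cells.

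Spp1 was the member that differed most, 10.6-fold lower in ePRAoe than in the controls, and its fall was called in each alternative tried. Lifr was lower than in Wnt7acre on average in both overexpressing genotypes, but its ePRAoe libraries overlapped those of Wnt7acre, and its call there held in 5 of the 19 alternatives tried. Il6st, Stat3 and Socs3 passed no test. Around them, the epithelial response gene Igfbp3 fell in both genotypes. All 4 tested enzymes that process osteopontin fell in ePRAoe, where 8.98% of all tested genes fell. However, 1 of them, Plau, passed the filter on low values only through libraries of other genotypes. Of the 4 enzymes, 2 kept the call with any 1 library left out. The gene lists were chosen with earlier results of these data known.

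All 5 members have an upstream sequence in RefSeq's table for GRCm38.p6. The 250 bases before RefSeq's first listed start are shown for the 2 members called below, Spp1 and Lifr, and for Socs3, the feedback target of STAT3. Capitals mark matches on either strand to any of 4 words. The first is the TATA-like word TTTAAA. Another is the box named CCAAT. The STAT palindrome was searched as TTCNNNGAA. The palindrome of the progesterone receptor and related receptors was searched as ACANNNTGT. No match overlapped another.
Spp1 (chr5:104434861-104435110, forward strand): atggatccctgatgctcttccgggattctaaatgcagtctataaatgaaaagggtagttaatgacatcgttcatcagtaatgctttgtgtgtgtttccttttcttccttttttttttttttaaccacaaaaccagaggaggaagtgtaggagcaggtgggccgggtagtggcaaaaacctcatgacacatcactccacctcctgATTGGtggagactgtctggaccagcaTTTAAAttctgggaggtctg
Lifr (chr15:7129322-7129571, forward strand): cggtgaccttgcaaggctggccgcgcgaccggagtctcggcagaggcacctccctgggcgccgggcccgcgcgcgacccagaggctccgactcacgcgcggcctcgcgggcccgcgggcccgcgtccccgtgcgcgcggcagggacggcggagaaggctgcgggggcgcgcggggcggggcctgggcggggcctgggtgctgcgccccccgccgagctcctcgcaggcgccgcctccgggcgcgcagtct
Socs3 (chr11:117969367-117969616, reverse strand): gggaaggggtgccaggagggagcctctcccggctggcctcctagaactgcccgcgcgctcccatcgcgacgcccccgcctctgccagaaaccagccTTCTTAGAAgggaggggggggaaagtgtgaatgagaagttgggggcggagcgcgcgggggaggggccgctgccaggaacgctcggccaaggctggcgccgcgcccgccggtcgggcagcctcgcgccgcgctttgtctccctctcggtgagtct
The Spp1 window held 3 CpG dinucleotides and 43.6% G and C, with TTTAAA at -20 to -15 and CCAAT on the reverse strand at -46 to -42, counted from the start. The Lifr window held 43 CpG dinucleotides and 82.4% G and C, and none of the 4 words, and it lies inside the gene as GENCODE M21 bounds it, since RefSeq's first listed start is downstream of the GENCODE start. The Socs3 window held 26 CpG dinucleotides and 1 STAT palindrome, TTCTTAGAA, at -154 to -146, and it too lies inside the gene's GENCODE bounds. Il6st had 2 CCAAT words and Stat3 had 1. Of 32851 such windows of mouse genes, 12.1% held TTTAAA, 33.8% CCAAT, 7.02% the STAT palindrome and 5.84% the receptor palindrome, and the median window had 6 CpG dinucleotides. These are matches of letters and not binding sites, and no member's first window held the receptor palindrome.

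All levels are in FPKM, by definition a read count divided by gene length and by library depth, so that genes can be compared per length. Libraries summed to between 272213 and 314010 FPKM, and 11074 to 12300 genes reached 1 FPKM. Differences below are on the log2(FPKM + 1) scale from 1 limma fit of all 9 libraries with terms for genotype and sequencing run, over 12347 tested genes, and a gene is called at a Benjamini-Hochberg adjusted p under 0.05. The targeted gene Pgr had 38.1, 38.3 and 45.9 FPKM in ePRBoe and 41.7, 49.5 and 42.8 FPKM in ePRAoe, against 17.4, 3.82 and 6.62 FPKM in Wnt7acre. The 16 luminal epithelium markers (Epcam, Cdh1 and keratins among them) were all tested. They summed to 2240.2 to 2383 FPKM in ePRBoe and 1844 to 2741 FPKM in ePRAoe, against 2055 to 2506 FPKM in Wnt7acre. In ePRAoe 3 of them rose and 2, Wnt7a among them, fell, where 7.2% and 8.98% of all tested genes did. The 18 stroma markers summed to 478 to 632 FPKM in ePRBoe and 276 to 458 FPKM in ePRAoe, against 111 to 148 FPKM in Wnt7acre. Of them, 16 rose in ePRBoe and 13 in ePRAoe, where 6.41% and 7.2% of all tested genes rose. With 1 library left out the stroma counts fell as low as 10 in ePRBoe (without Wnt7acre replicate 3) and 8 in ePRAoe (without ePRAoe replicate 3 or Wnt7acre replicate 2). In captured tissue, more cells of a type and more RNA per cell cannot be told apart.

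Spp1 (ENSMUSG00000029304.14, chromosome 5, 104435118 to 104441050, forward strand, mm10) had 24.7, 42.9 and 13.4 FPKM in ePRBoe replicates 1 to 3 and 5.41, 5.04 and 7.25 FPKM in ePRAoe, against 31.8, 137 and 83.7 FPKM in Wnt7acre. All 3 ePRAoe libraries lay below every other library, and ePRBoe overlapped Wnt7acre through Wnt7acre replicate 1. The means were 27.0 ± 14.9 FPKM in ePRBoe and 5.90 ± 1.18 FPKM in ePRAoe, against 84.1 ± 52.6 FPKM in Wnt7acre (SD, n = 3 each). In ePRAoe Spp1 fell by 3.41 on the log2 scale (SE 0.45, 95% interval -4.45 to -2.37, adjusted p = 0.0043), which is 10.6-fold. Within run 1, run 2 and run 3 the difference was -3.81, -4.06 and -2.35. It was called with any 1 of the 9 libraries left out (-3.94 to -3.08, adjusted p at most 0.0355) and in all 10 other alternatives. In ePRBoe the difference from Wnt7acre was -1.54 (SE 0.55, 95% interval -2.81 to -0.27, adjusted p = 0.127), and within run 1 it was -1.74. Between ePRBoe and ePRAoe it was 1.87 (SE 0.55, 95% interval 0.60 to 3.14, adjusted p = 0.151), with all ePRBoe libraries above all ePRAoe libraries. Exact permutation tests (two-sided) returned p = 0.1 for ePRAoe with Wnt7acre, 0.2 for ePRBoe with Wnt7acre and 0.1 for ePRBoe with ePRAoe, where 0.1 is the smallest that 20 regroupings allow. The regroupings took no account of sequencing run, and all ePRBoe libraries came from run 1, so run and genotype are mixed in the tests with ePRBoe.

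**Figure D1:**
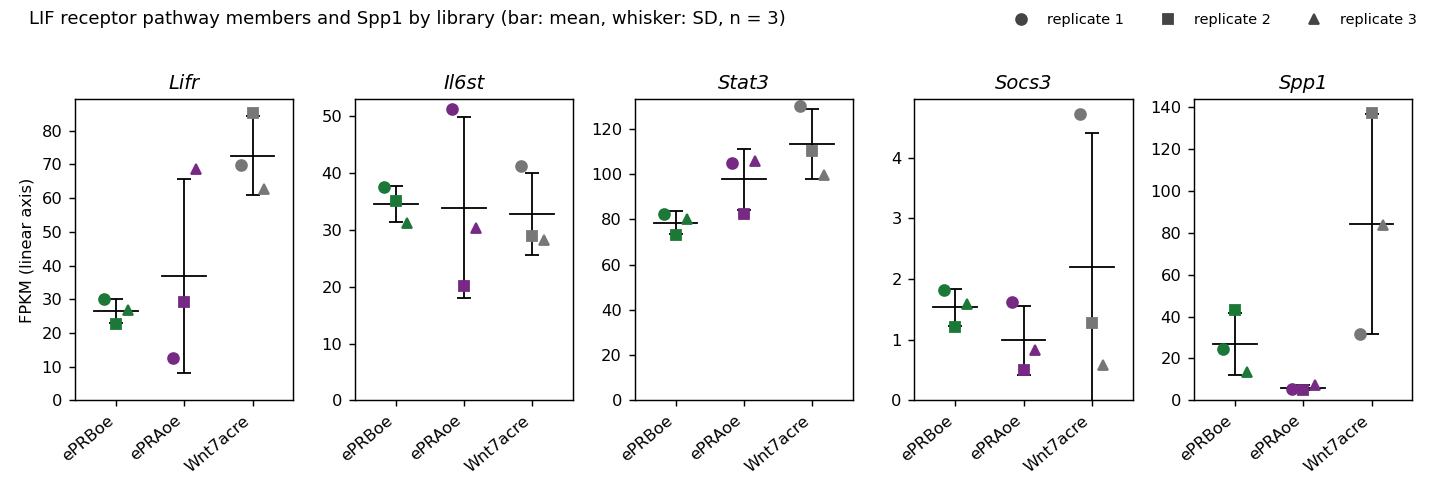
FPKM of the 5 members (vertical axes from 0, one scale per gene) in each library of ePRBoe, ePRAoe and Wnt7acre, with the mean and SD (n = 3); the lower whisker of Socs3 in Wnt7acre is cut at 0. The ePRAoe libraries of Spp1 sit between 5.04 and 7.25 FPKM, below all others, while those of Lifr are spread from 12.6 to 68.6 FPKM.

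Macrophages also make osteopontin, and the 14 macrophage and dendritic cell markers, of which none was at 0 in every library of a genotype, summed to 425, 464 and 359 FPKM in ePRBoe and 192, 117 and 133 FPKM in ePRAoe, against 435, 235 and 214 FPKM in Wnt7acre. Of the 13 tested, 5 fell in ePRAoe (Csf1r, C1qc, Tyrobp, Fcer1g and Itgax), where 8.98% of all tested genes fell. In ePRBoe 3 rose, where 6.41% of all tested genes rose. With 1 library left out, 3 to 6 fell in ePRAoe (3 without ePRAoe replicate 2 or 3 or Wnt7acre replicate 2 or 3), and Csf1r kept its call in 4 and Itgax in 2 of the 9 fits. The rises in ePRBoe then numbered 0 to 5 by limma (5 without ePRAoe replicate 1 or Wnt7acre replicate 1, 1 without ePRBoe replicate 1 or 2 or ePRAoe replicate 2, and 0 without Wnt7acre replicate 3, where 6 had an unadjusted p under 0.05). Between ePRBoe and ePRAoe 4 of the 13 (C1qa, C1qc, Tyrobp and Fcer1g) were called higher in ePRBoe, where 0.316% of all genes were. With 1 library left out they numbered 0 to 9 by limma. The 11 natural killer and T cell markers in the table summed to 55.8 to 86.7 FPKM in ePRBoe and 20.5 to 37.1 FPKM in ePRAoe, against 17.7 to 35.8 FPKM in Wnt7acre, and none was at 0 throughout a genotype. Of the 10 tested, 4 rose in ePRBoe (Nkg7, Prf1, Gzmb and Il2rb, 2 to 4 with 1 library left out), where 6.41% of all tested genes rose. Gzmb alone rose in ePRAoe, where 7.2% of all tested genes rose. Nkg7 and Il2rb were called higher in ePRBoe than in ePRAoe (0 to 3 genes with 1 library left out). The 10 gland markers summed to 13.1 to 74.5 FPKM in ePRBoe and 5.08 to 16.1 FPKM in ePRAoe, against 19.6 to 47.9 FPKM in Wnt7acre, with Prss28 at 0 in all ePRAoe libraries and Ttr at 0 in all Wnt7acre libraries. Only 4 of the gland markers were tested, and in ePRAoe Spink1 fell and Aldh1a1 rose, both with any 1 library left out. Spp1 had its highest value in Wnt7acre replicate 2, where the macrophage sum was 235 FPKM, and 31.8 FPKM in Wnt7acre replicate 1, where that sum was 435 FPKM. In ePRBoe, by contrast, Spp1 (24.7, 42.9 and 13.4 FPKM in replicates 1 to 3) and the macrophage sum ran in the same order. The ePRAoe libraries were the lowest of all in both Spp1 and the macrophage sum, though not in the same order among themselves. The part of these cell types in the Spp1 result was not tested. In GENCODE M21 an exon of Gm42793 overlaps Spp1 on the same strand, and Gm42793 is not among the symbols analysed.

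Lifr (ENSMUSG00000054263.12, chromosome 15, 7090614 to 7197489, forward strand) had 30.1, 22.7 and 26.7 FPKM in ePRBoe and 12.6, 29.3 and 68.6 FPKM in ePRAoe, against 69.8, 85.4 and 62.7 FPKM in Wnt7acre. All ePRBoe libraries lay below all Wnt7acre libraries, whereas ePRAoe replicate 3 lay among the Wnt7acre libraries. The means were 26.5 ± 3.72 FPKM in ePRBoe and 36.8 ± 28.7 FPKM in ePRAoe, against 72.6 ± 11.6 FPKM in Wnt7acre (SD, n = 3 each). The test called Lifr in ePRAoe, where it fell by 1.26 (SE 0.34, 95% interval -2.04 to -0.47, adjusted p = 0.0433), and not in ePRBoe, where the difference was -1.31 (SE 0.41, 95% interval -2.27 to -0.35, adjusted p = 0.0942). The sizes are close, and the difference between ePRBoe and ePRAoe was -0.06 (95% interval -1.02 to 0.90, adjusted p = 0.954).

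The ePRAoe call for Lifr was not stable. Within run 1, run 2 and run 3 the ePRAoe library differed from its Wnt7acre library by -1.07, -0.31 and -2.38, so the difference was largest for ePRAoe replicate 1, in run 3. The call held without ePRAoe replicate 3 or Wnt7acre replicate 2, which share run 2 (lowest adjusted p = 0.0331, difference down to -1.73). It was lost without any of the other 7 libraries. The adjusted p was 0.0658 without ePRAoe replicate 1 and 0.0654 without Wnt7acre replicate 1 (difference -0.69 in both), 0.131 without ePRAoe replicate 2, 0.130 without Wnt7acre replicate 3, and 0.0650 to 0.0674 without an ePRBoe library. The ePRBoe difference from Wnt7acre kept its sign in each alternative (-1.55 to -1.03) and passed in 4 of the 9 fits that left out a library, and also when ePRBoe and Wnt7acre alone were fitted (-1.22, adjusted p = 0.0271). The exact permutation test (two-sided) gave p = 0.2 for ePRAoe and 0.1 for ePRBoe against Wnt7acre.

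**Figure D2:**
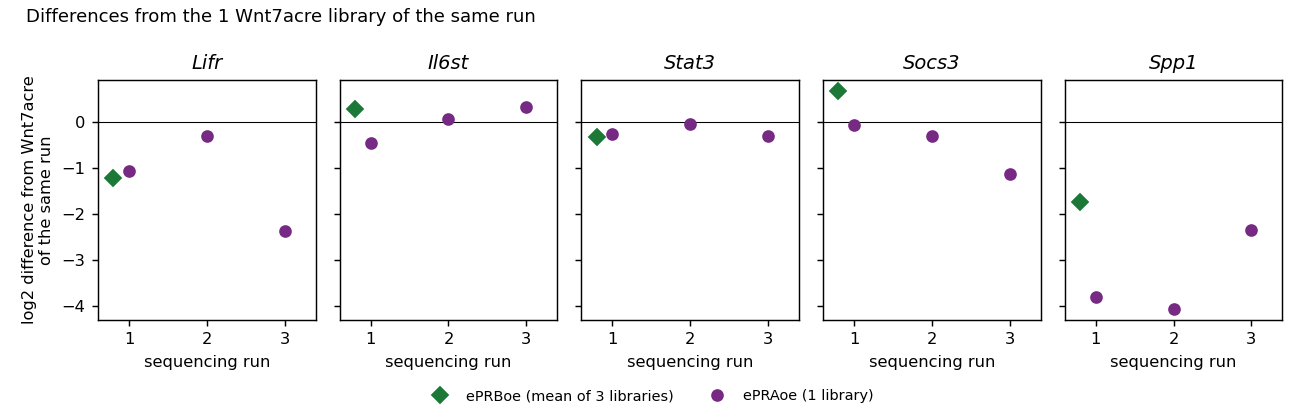
Log2 difference of each ePRAoe library, and of the mean of 3 ePRBoe libraries, from the Wnt7acre library of the same sequencing run, for each member (horizontal axis: run; vertical axis: difference in log2(FPKM + 1)). Spp1 was lower in every run (-4.06 to -2.35 in ePRAoe), while Lifr in ePRAoe lay between -0.31 in run 2 and -2.38 in run 3; run 2 and run 3 held no ePRBoe library.

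Il6st (ENSMUSG00000021756.12, chromosome 13, 112464070 to 112510086, forward strand) had 37.5, 35.1 and 31.2 FPKM in ePRBoe and 51.3, 20.1 and 30.3 FPKM in ePRAoe, against 41.2, 28.9 and 28.3 FPKM in Wnt7acre. The 3 genotypes overlapped. The difference from Wnt7acre was 0.50 in ePRBoe (95% interval 0.02 to 0.98, adjusted p = 0.177) and -0.03 in ePRAoe (95% interval -0.42 to 0.36, adjusted p = 0.919), and between ePRBoe and ePRAoe it was 0.53 (95% interval 0.06 to 1.01, adjusted p = 0.230). Without the run term the ePRBoe difference was 0.09, and within run 1, the only run with ePRBoe libraries, it was 0.28.

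The 2 receptor chains stood in different proportion, a measure chosen after the values were seen. The Lifr level divided by the Il6st level, both per length, was 0.803, 0.645 and 0.854 in ePRBoe and 0.245, 1.46 and 2.26 in ePRAoe, against 1.69, 2.95 and 2.22 in Wnt7acre. Lifr was thus the lower chain in all ePRBoe libraries and the higher chain in all Wnt7acre libraries, and the ePRAoe libraries fell on both sides. No p-value is given for this ratio.

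Stat3 (ENSMUSG00000004040.16, chromosome 11, 100885098 to 100939540, reverse strand) was the most abundant member in each genotype, between the 94.6th and 96.5th percentile of the tested genes. It had 82.6, 73.1 and 80.1 FPKM in ePRBoe and 105.0, 82.3 and 106 FPKM in ePRAoe, against 130.2, 110.4 and 99.8 FPKM in Wnt7acre. The ePRBoe libraries lay below all Wnt7acre libraries, and those of ePRAoe overlapped both. The difference from Wnt7acre was -0.31 in ePRBoe (95% interval -0.67 to 0.04, adjusted p = 0.253) and -0.21 in ePRAoe (95% interval -0.50 to 0.08, adjusted p = 0.286), and the median over all tested genes was 0.10 in ePRBoe and -0.03 in ePRAoe. An exon of Stat5a on the opposite strand overlaps Stat3, and the strand setting of the counting is not given in the sources used here, so reads in that stretch cannot be assigned to either gene. Stat3 mRNA does not show how much of the protein was phosphorylated.

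Socs3 (ENSMUSG00000053113.3, chromosome 11, 117966079 to 117970047, reverse strand) was the least abundant member. It had 1.81, 1.2 and 1.59 FPKM in ePRBoe and 1.62, 0.502 and 0.837 FPKM in ePRAoe, against 4.72, 1.28 and 0.586 FPKM in Wnt7acre. Wnt7acre replicate 1 stood above the other 8 libraries, and the genotypes overlapped. All 9 values were whole multiples of 1 step, the same in every library, of 0.0279 FPKM to within 0.001 FPKM, which corresponds to 65, 43 and 57 reads in ePRBoe and 58, 18 and 30 reads in ePRAoe, against 169, 46 and 21 reads in Wnt7acre. The difference from Wnt7acre was 0.46 in ePRBoe (95% interval -0.23 to 1.15, adjusted p = 0.385) and -0.51 in ePRAoe (95% interval -1.07 to 0.06, adjusted p = 0.199), and between ePRBoe and ePRAoe it was 0.96 (95% interval 0.27 to 1.65, adjusted p = 0.165). Without the run term the ePRBoe difference turned to -0.12 (adjusted p = 0.881).

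**Figure D3:**
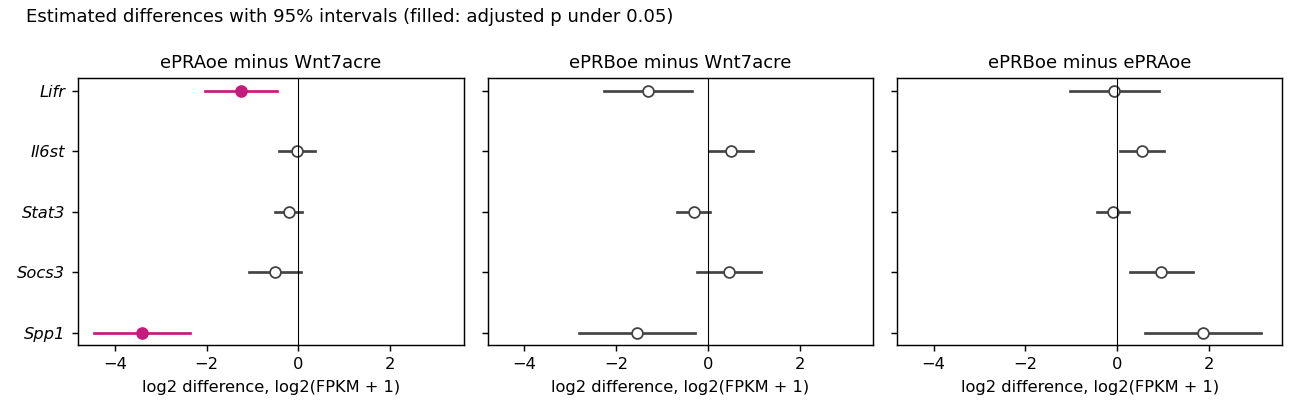
Estimated log2 differences of the 5 members in the 3 comparisons, as points with 95% intervals (horizontal axis: difference in log2(FPKM + 1)). Spp1 (-3.41) and Lifr (-1.26) in ePRAoe minus Wnt7acre are the 2 filled points, with an adjusted p under 0.05.

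Of the 5 members, 2 were called in ePRAoe against Wnt7acre, both lower, where 16.2% of all tested genes were called (7.2% higher and 8.98% lower). In ePRBoe against Wnt7acre limma called 0 members, where 8.89% of all genes were called (6.41% higher and 2.48% lower), and 3 members (Lifr, Il6st and Spp1) had an unadjusted p under 0.05. In ePRBoe against ePRAoe it called 0 members, where 0.324% of all genes were called (0.316% higher and 0.0081% lower), and 3 members (Il6st, Socs3 and Spp1) had an unadjusted p under 0.05. By overlap alone, 1 member (Spp1) was lower without overlap in ePRAoe against Wnt7acre, where 28.9% of all genes did not overlap (12.6% higher and 16.2% lower). In ePRBoe against Wnt7acre 2 members (Lifr and Stat3) were lower without overlap, where 39.8% of all genes did not overlap (23.5% higher and 16.3% lower). In ePRBoe against ePRAoe 1 member (Spp1) was higher without overlap, where 22.6% of all genes did not overlap (16.8% higher and 5.8% lower). Overlap takes no account of sequencing run. All ePRBoe libraries were in run 1, with only ePRAoe replicate 2 and Wnt7acre replicate 3 from the other genotypes. In exact permutation tests (two-sided) of Il6st, Stat3 and Socs3, p lay between 0.1 and 1.0 in the 3 comparisons. The comparisons with Wnt7acre share their control libraries and are not independent of each other.

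The order of levels changed between genotypes for some neighbours. In ePRBoe the means ran from Stat3 (78.6 FPKM) over Il6st (34.6 FPKM), Spp1 (27.0 FPKM) and Lifr (26.5 FPKM) to Socs3 (1.53 FPKM), with Spp1 overlapping both Il6st and Lifr. In ePRAoe they ran from Stat3 (97.7 FPKM) over Lifr (36.8 FPKM), Il6st (33.9 FPKM) and Spp1 (5.90 FPKM) to Socs3 (0.986 FPKM), with Lifr and Il6st overlapping. In Wnt7acre they ran from Stat3 (113 FPKM) over Spp1 (84.1 FPKM), Lifr (72.6 FPKM) and Il6st (32.8 FPKM) to Socs3 (2.20 FPKM), with Spp1 overlapping Stat3, Lifr and Il6st.

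The mRNA of LIF itself was near the limit of detection in the captured tissue. Lif had 0.333, 0.140 and 0.140 FPKM in ePRBoe and 0.351, 0 and 0.105 FPKM in ePRAoe, against 0.333, 0.123 and 0.228 FPKM in Wnt7acre, and did not pass the filter. On steps of 0.0175 FPKM these were 0 to 20 reads a library, and no difference was detectable at this depth. Among the 17 cytokines and receptors of the interleukin-6 family that were listed, 13 were in the table and 7 were tested. In ePRBoe 2 rose and 0 fell, where 6.41% and 2.48% of all tested genes did. The median difference of the 7 was -0.32, against 0.10 over all genes. In ePRAoe 1 rose and 4 fell, where 7.2% and 8.98% of all tested genes did. The median there was -1.23, against -0.03 over all genes. The 4 include Il6ra, which passed the filter on low values through libraries of other genotypes.

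Clcf1, a cytokine that signals through LIFR and gp130 with the receptor CNTFR, had 14.9, 8.90 and 8.54 FPKM in ePRBoe and 7.56, 4.83 and 7.96 FPKM in ePRAoe, against 21.8, 37.2 and 25.2 FPKM in Wnt7acre. It was lower in every library of both genotypes than in any Wnt7acre library, and in ePRAoe fell by 1.89 (adjusted p = 0.00389). In ePRBoe the Clcf1 difference of -1.05 missed the threshold (adjusted p = 0.0690). Ctf1, the LIFR ligand cardiotrophin-1, went the other way: it had 15.7, 25.5 and 18.7 FPKM in ePRBoe and 30.3, 23.1 and 9.34 FPKM in ePRAoe, against 8.66, 3.27 and 7.27 FPKM in Wnt7acre. Ctf1 rose by 1.51 in ePRAoe (adjusted p = 0.00391) and by 1.30 in ePRBoe (adjusted p = 0.0183), and in ePRBoe it missed the threshold when ePRBoe replicate 3 (0.0537), ePRAoe replicate 2 (0.0705) or Wnt7acre replicate 3 (0.157) was left out. The ePRAoe calls of both held with any 1 library left out, and that of Ctf1 was lost without the run term (0.0510).

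Among the other receptor chains, Il6ra, which binds interleukin-6, had 2.05, 0.765 and 0.810 FPKM in ePRBoe and 0.270, 0.180 and 1.06 FPKM in ePRAoe, against 4.28, 5.06 and 2.61 FPKM in Wnt7acre. In ePRAoe Il6ra fell by 1.74 (adjusted p = 0.00591, called with any 1 library left out), and it was at -0.82 in ePRBoe (adjusted p = 0.154). Of the ePRAoe libraries only replicate 3 reached 1 FPKM, so Il6ra passed the filter on low values through libraries of other genotypes. Osmr, which pairs with gp130 for oncostatin M, fell by 1.23 in ePRAoe (10.3 ± 7.48 FPKM, against 23.2 ± 11.2 FPKM in Wnt7acre; adjusted p = 0.0274). The Osmr call was lost without the run term (0.166), ePRAoe replicate 1 (0.0794), ePRAoe replicate 2 (0.141), Wnt7acre replicate 1 (0.0800) or Wnt7acre replicate 3 (0.141). Il11ra1, the chain for interleukin-11, rose by 1.08 in ePRBoe (7.83 ± 0.662 FPKM, against 3.54 ± 0.359 FPKM in Wnt7acre; adjusted p = 0.0135) and was at 0.39 in ePRAoe (adjusted p = 0.111). The Il11ra1 call was lost without ePRBoe replicate 2 (0.0518), ePRBoe replicate 3 (0.0511), ePRAoe replicate 2 (0.0525) or Wnt7acre replicate 3 (0.112).

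Of 11 JAK kinases and STAT factors, 10 were tested. In ePRAoe 1 rose and 0 fell, where 7.2% and 8.98% of all tested genes did. The gene that rose was Stat5a, at 5.61 ± 0.685 FPKM, against 2.96 ± 0.881 FPKM in Wnt7acre (0.76, adjusted p = 0.0237). Its call held in 4 of the 9 fits with a library left out. The overlap with Stat3 described above applies to Stat5a too. In ePRBoe limma called 0, where 8.89% of all tested genes were called, and 2 had an unadjusted p under 0.05. Jak2, a kinase bound to gp130 and with Stat3 the most abundant of the list by mean over all libraries, had a difference of 0.23 in ePRBoe (adjusted p = 0.636) and 0.27 in ePRAoe (adjusted p = 0.430). All 17 listed inhibitors and phosphatases of the pathway were tested. In each genotype 2 of them, Socs7 and Ptpn1, rose, 0 fell and 15 were not called. Of all tested genes, 6.41% rose in ePRBoe and 7.2% in ePRAoe. Socs7 had 24.6, 29.4 and 29.6 FPKM in ePRBoe and 22.7, 22.1 and 25.2 FPKM in ePRAoe, against 12.7, 15.3 and 15.5 FPKM in Wnt7acre, and rose by 0.88 in ePRBoe (adjusted p = 0.0187) and by 0.65 in ePRAoe (adjusted p = 0.0168). Ptpn1, a tyrosine phosphatase, rose by 0.62 in ePRBoe and 0.47 in ePRAoe (adjusted p = 0.0483 and 0.0419), and each call held in 2 of the 9 fits with a library left out. The Socs7 call was lost in ePRAoe without ePRAoe replicate 3 (0.0721) or Wnt7acre replicate 2 (0.0705), and in ePRBoe without 4 libraries (highest 0.0897, without Wnt7acre replicate 3).

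The largest change among 21 listed response genes of STAT3 and LIF was that of Igfbp3, a secreted binding protein for insulin-like growth factors that LIF regulates in the mouse uterus. Igfbp3 (chromosome 11, 7206086 to 7213923, reverse strand) had 123, 83.7 and 141 FPKM in ePRBoe and 31.4, 62.3 and 109 FPKM in ePRAoe, against 425, 1428 and 1017 FPKM in Wnt7acre. Its ePRAoe level fell by 3.81 (SE 0.21, adjusted p = 0.00082) and in ePRBoe it fell by 3.05 (SE 0.26, adjusted p = 0.00281), and both calls held with any 1 library left out. Coch, an extracellular protein of the luminal epithelium that LIF also regulates in the mouse, had 217, 220.0 and 185 FPKM in ePRBoe and 104, 202 and 161 FPKM in ePRAoe, against 209.9, 50.1 and 56.2 FPKM in Wnt7acre. Wnt7acre replicate 1 lay among the overexpressing libraries, and neither the ePRBoe difference of 1.36 (adjusted p = 0.201) nor the ePRAoe difference of 0.83 (adjusted p = 0.287) was called for Coch.

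In ePRAoe 6 of the 21 response genes fell and 1 rose (median -0.40), where 8.98% and 7.2% of all tested genes did. In ePRBoe 2 fell and 1 rose (median 0.04), where 2.48% and 6.41% of all tested genes did. Besides Igfbp3, the transcription factors Myc, Fosl2 and Cebpb fell in ePRAoe by 1.96, 1.23 and 1.14 (adjusted p = 0.00533, 0.00401 and 0.00834), each called with any 1 library left out. Myc had 20.7, 15.1 and 34.3 FPKM in ePRAoe, against 44.5, 167 and 94.1 FPKM in Wnt7acre. Il1rn fell by 1.89 and Icam1 by 0.75 (adjusted p = 0.0433 and 0.0446), and they kept the call in 4 and 0 of the 9 fits with a library left out. Fos rose by 2.79 (adjusted p = 0.0119), with 20.4, 125 and 16.5 FPKM in ePRAoe, against a mean of 4.31 ± 1.15 FPKM in Wnt7acre (SD, n = 3). In ePRBoe Fosl2 fell by 0.87 (adjusted p = 0.0344) and Timp1 rose by 1.68 (adjusted p = 0.0425), each called in 3 of the 9 fits with a library left out. Without the run term Timp1 was at 0.79 (adjusted p = 0.43). Bcl3, Junb, Pim1, Mcl1 and Socs3, all known STAT3 targets, passed in neither genotype.

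Enzymes known to process osteopontin fell in ePRAoe, as Spp1 did, where 8.98% of all tested genes fell. Of 7 listed, 4 were tested, and all 4 fell in ePRAoe (median -2.62; 2 without ePRAoe replicate 2 or 3 or Wnt7acre replicate 2 or 3), while in ePRBoe limma called 0 (median -1.48) and 3 had an unadjusted p under 0.05. The 4 include Plau, which passed the filter on low values only through libraries of other genotypes. Mmp7, a matrix metalloprotease that cleaves osteopontin, had 56.4, 41.9 and 19.5 FPKM in ePRBoe and 1.57, 0.818 and 6.0 FPKM in ePRAoe, against 62.4, 378 and 305 FPKM in Wnt7acre. Fam20c, the kinase that phosphorylates osteopontin and other secreted proteins, had 15.5, 3.53 and 5.55 FPKM in ePRBoe and 2.08, 1.41 and 2.15 FPKM in ePRAoe, against 16.1, 67.7 and 37.0 FPKM in Wnt7acre. Both had the lowest of their 3 control values in Wnt7acre replicate 1, as Spp1 did. In ePRAoe Mmp7 fell by 5.93 (adjusted p = 0.00171) and Fam20c by 3.64 (adjusted p = 0.00526), both with any 1 library left out. In ePRBoe they were at -2.31 (adjusted p = 0.0692) and -2.10 (adjusted p = 0.0859).

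Tgm2, a transglutaminase that cross-links osteopontin, had 78.8, 40.8 and 44.2 FPKM in ePRBoe and 17.9, 11.4 and 27.8 FPKM in ePRAoe, against 36.2, 85.0 and 58.0 FPKM in Wnt7acre. It fell by 1.60 in ePRAoe (adjusted p = 0.0135) and was at 0.17 in ePRBoe (adjusted p = 0.813). The Tgm2 call was lost without ePRAoe replicate 2 (0.0800), ePRAoe replicate 3 (0.0692), Wnt7acre replicate 2 (0.0688) or Wnt7acre replicate 3 (0.0792). Plau, the urokinase plasminogen activator, fell by 0.99 in ePRAoe at low levels (0.270 ± 0.131 FPKM, against 1.52 ± 0.202 FPKM in Wnt7acre; adjusted p = 0.0226), and its call was lost without any of the 6 ePRAoe or Wnt7acre libraries (0.0531 to 0.101). All ePRAoe libraries had Plau below 1 FPKM, so it passed the filter on low values only through libraries of other genotypes.

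Of 11 listed receptors of osteopontin (integrin chains and CD44), 9 were tested. In ePRBoe 2 rose (median 0.13), where 6.41% of all tested genes rose. In ePRAoe 1 rose (median -0.07), where 7.2% of all tested genes rose. None of the receptors fell in either genotype. Itga9, an integrin chain that binds osteopontin and tenascin, had 26.4, 22.8 and 58.2 FPKM in ePRBoe and 32.7, 31.2 and 23.6 FPKM in ePRAoe, against 8.87, 3.96 and 4.00 FPKM in Wnt7acre. It rose by 2.54 in ePRBoe (adjusted p = 0.0136, lost without Wnt7acre replicate 3 at 0.167) and by 2.26 in ePRAoe (adjusted p = 0.00631, called with any 1 library left out). Cd44 rose by 1.06 in ePRBoe in the fit with the run term (adjusted p = 0.0265) and was at 0.25 without that term (adjusted p = 0.728). Its libraries overlapped, with 6.34, 7.34 and 6.80 FPKM in ePRBoe, against 9.68, 6.64 and 2.48 FPKM in Wnt7acre. The more abundant chains Itgb1 and Itgb5 passed in neither genotype (Itgb1 -0.38 in ePRBoe and -0.31 in ePRAoe, Itgb5 -0.09 in ePRBoe and -0.07 in ePRAoe).

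Some other matrix proteins that bind or act on integrins rose. Of 10 listed relatives and ligands, 5 were in the table and tested, Spp1 among them. In ePRBoe 3 of the 5 rose, where 6.41% of all tested genes rose. In ePRAoe 2 rose and 1, Spp1, fell, where 7.2% and 8.98% of all tested genes did. Fn1 (fibronectin) had 46.1, 45.5 and 64.6 FPKM in ePRBoe and 39.0, 26.3 and 38.4 FPKM in ePRAoe, against 11.3, 11.2 and 9.97 FPKM in Wnt7acre. It rose by 2.38 in ePRBoe (adjusted p = 0.003) and by 1.57 in ePRAoe (adjusted p = 0.00243), and both calls held with any 1 library left out. Tnc (tenascin C) rose by 1.52 in ePRBoe and 1.19 in ePRAoe, and Sparc rose by 2.21 in ePRBoe, but each of these calls was lost without at least 1 library (highest adjusted p = 0.0847 for Tnc in ePRBoe, without Wnt7acre replicate 3, and 0.0956 for Sparc, without ePRAoe replicate 2). Fibroblasts make much of these proteins, the stroma marker sums given above moved the same way, and their part in these rises was not tested.

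**Figure D4:**
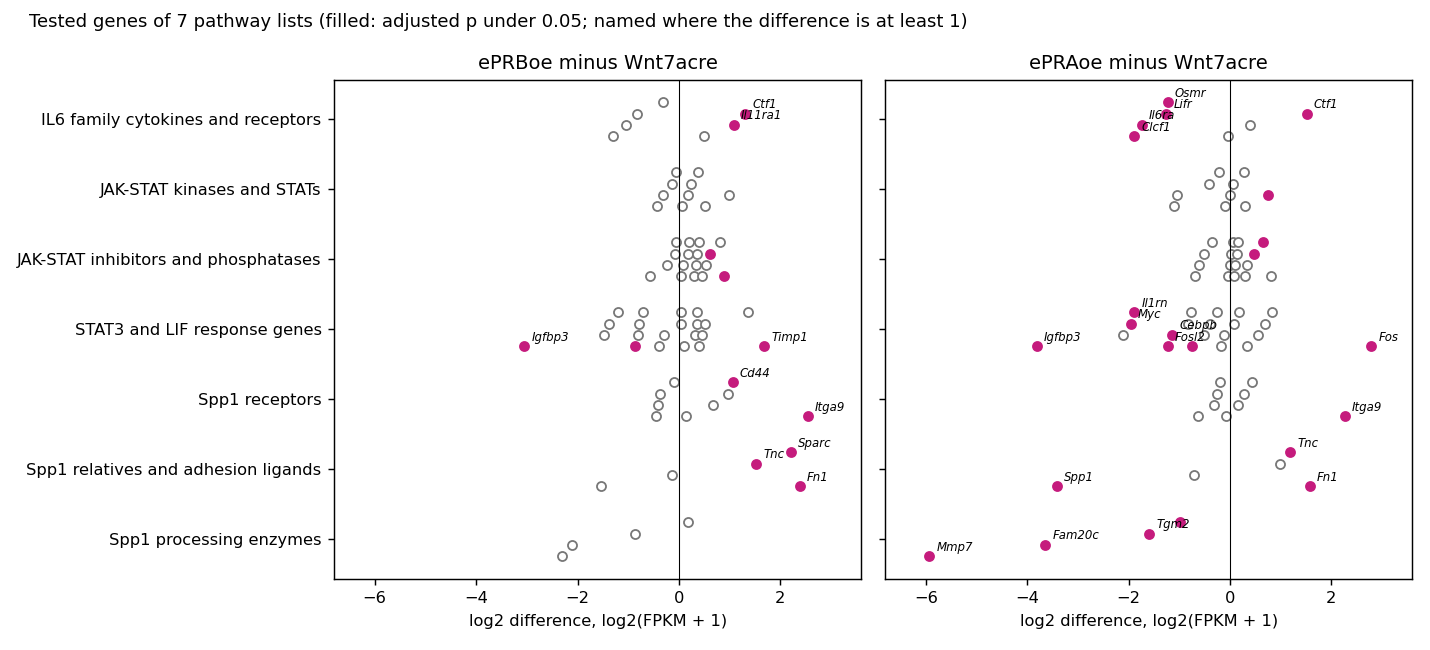
Log2 differences from Wnt7acre of the tested genes of 7 lists around LIF signalling and osteopontin, in ePRBoe (left) and ePRAoe (right); each point is a gene, filled where the adjusted p is under 0.05. In ePRAoe all 4 processing enzymes lie at -0.99 or below, while the receptors of osteopontin lie around 0 apart from Itga9 at 2.26.

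Some genes had a pattern over the 9 libraries close to that of a member, measured as the root-mean-square difference of centred log2 values among 8425 other genes (8426 for Socs3) whose mean reached 5 FPKM. The 3 nearest to Spp1 were Fam174b (0.33), B4galnt1 (0.51) and Slc39a8 (0.52), where Spp1 itself varied by 1.53 about its mean. Fam174b had 7.61, 10.5 and 4.77 FPKM in ePRBoe and 1.96, 0.908 and 1.82 FPKM in ePRAoe, against 13.4, 35.5 and 18.5 FPKM in Wnt7acre. The 3 nearest to Lifr were Acss1 (0.28), Cep120 (0.31) and Zfp52 (0.33), where Lifr varied by 0.85. Acss1 was likewise low in ePRAoe replicate 1 (9.78 FPKM) and high in ePRAoe replicate 3 (62.0 FPKM). Nearest to Socs3, which varied by 0.54, were Tmed3, Nmi and Psmb8 (0.30 each). Il6st and Stat3 varied little (0.35 and 0.25), and their nearest genes were Dnajc9, Ifi27 and C2cd2l (0.10 to 0.13) and Klhl42, Wdr1 and Pgam5 (0.09 to 0.10).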

How the data were processed

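The authors deposited 1 table of FPKM values per gene symbol and library, 1 column for each of the 9 libraries, per the file headers. STAR 2.5.2b, featureCounts 1.5.0-p1 of Subread, edgeR 3.28.0, limma 3.42.2 and the build mm10 are named in the submitters' processing notes. The sources used here do not give the annotation, strand setting, gene lengths or depth. The low values of Lif and Socs3 fell on 1 step per gene in all 9 libraries, as they would with the same divisor in every library. Relative depth between libraries could therefore not be read from these values, and how the divisor was set is not given.

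Values were transformed as log2(FPKM + 1). Testing was limited to the 12347 genes that reached 1 FPKM in 3 or more libraries, which left out 2811. Genotype and sequencing run were fitted in limma 3.58.1 (R 4.3.3) to all 9 libraries, and the variances were moderated with a trend in mean expression (residual degrees of freedom 4, prior 3.64), two-sided, with Benjamini-Hochberg adjustment over all tested genes and a threshold of 0.05. The run names come from the labels: run 1 held ePRBoe replicates 1 to 3, ePRAoe replicate 2 and Wnt7acre replicate 3, run 2 held ePRAoe replicate 3 and Wnt7acre replicate 2 (both runs in 2019), and run 3 held ePRAoe replicate 1 and Wnt7acre replicate 1 (2020). The adjusted p of each gene comes from this fit unless a setting is named. Exact permutation tests were run over samples for the members, without regard to sequencing run. Positions come from GENCODE M21 (mm10) and upstream sequences from RefSeq (GRCm38.p6).

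The members and gene lists were chosen with earlier results of these data known. The members are always named. Of each list, called genes are named, up to 6 per comparison with the largest moderated t with values; where fewer than 2 were called, the 2 with the highest mean FPKM are named. Lif, Igfbp3 and Coch are always named, as are the 3 genes nearest in pattern to a member. A few further genes serve as examples. The alternatives were another pseudocount (0.1), 2 other filters, 3 other scalings, no run term, no trend, a replicate block, a fit of 2 genotypes, and each library left out.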

Additional observations from a re-analysis of the deposited data

How the results depend on the processing

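Without 1 library the number of called genes ran from 747 to 2719 (ePRAoe with Wnt7acre, 1998 with all libraries), 232 to 1602 (ePRBoe with Wnt7acre, 1098) and 0 to 546 (ePRBoe with ePRAoe, 40). The 0 came from limma when any of ePRBoe replicates 1 and 2 and ePRAoe replicate 2 was left out, where 1481, 1666 and 889 genes had an unadjusted p under 0.05. The called members ran from 1 to 2, 0 to 1 and 0 to 0. A library left out of run 2 or run 3 also takes away what its partner in that run tells about genotype.

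Of 2 called members in ePRAoe with Wnt7acre, 1 (Spp1) stayed with no filter, quantile normalization, TPM, no run term, no trend, the replicate block, or ePRAoe and Wnt7acre alone. In ePRBoe with Wnt7acre 1 member (Lifr) was called when these were fitted alone. Called genes numbered 1063 for ePRAoe and Wnt7acre fitted alone, 653 (ePRBoe with Wnt7acre) where the mean had to reach 5 FPKM, which leaves Socs3 untested, and 1786 without the run term. In ePRBoe with ePRAoe they numbered 19 with no filter, 22 with median-of-ratios factors, 15 with quantile normalization, 7 without the run term and 453 for these alone.

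The replicate numbers were not taken as pairs in the main fit. Same-numbered libraries correlated in their deviations from the genotype mean at -0.23 to 0.171, and differently numbered ones at -0.307 to 0.315. With 3 libraries a genotype, and with some pairs sharing a sequencing run, these ranges cannot decide whether the numbers pair samples. With the replicate block in place of the run term 1113 genes were called in ePRAoe with Wnt7acre and 4 in ePRBoe with ePRAoe, and Lifr in ePRAoe had an adjusted p of 0.132 and Socs3 in ePRBoe a difference of -0.12, as without the run term.

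Of 282 values of members under an alternative, 11 turned sign, all of differences that had not been called. Il6st in ePRAoe was at 0.0077 with median-of-ratios factors, 0.0387 with quantile normalization and 0.0106 with TPM, and between -0.21 and 0.19 with a library left out. Lifr between ePRBoe and ePRAoe was between -0.34 and 0.18 with a library left out, above 0 in 4 of the 9 fits. The causes were not tested. With median-of-ratios factors the median difference over all genes moved to -0.03 in ePRBoe with Wnt7acre (0.10 as deposited) and -0.02 in ePRBoe with ePRAoe (0.15 as deposited), and no member of those comparisons turned sign or was called.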

Other observations

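Il6, which encodes interleukin-6, a relative of LIF that also signals through gp130, did not pass the filter on low values. It had 0.466, 1.07 and 0.6 FPKM in ePRBoe and 0.267, 7.26 and 0.466 FPKM in ePRAoe, against 0, 0.133 and 0.2 FPKM in Wnt7acre. ePRAoe replicate 2 stood above the other 8 libraries, and the same library had the highest Fos level, 125 FPKM. The genes were set side by side after their values were seen.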
